A study of Rattus norvegicus with 16 samples.

Results

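The genes described here encode the proteins that license origins of replication, open and copy DNA, supply its nucleotides and control entry into S phase, the part of the cell cycle in which DNA is copied. The list holds 40 rat genes, chosen by function and with earlier results of these data known. A gene was measured where the accession of an array probe belonged to it. Of the 40 genes, 38 had a probe, and 37 were tested among 20471 genes and unnamed transcripts. Mcm5 and Uhrf1 were not matched to a probe. Dnmt1, the maintenance DNA methyltransferase, had a probe whose signal was well above background on 0 of the 16 arrays, so no change is given for it.

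RNA labelled as brain tissue of rats 8 weeks old was hybridised to 16 single-colour Agilent arrays. The arrays held 5 samples of normal controls that had no occlusion, 5 of rats given saline after occlusion of the middle cerebral artery (MCAo, which blocks the vessel to model ischaemic stroke), and 6 of rats with MCAo that received 1000000 cells intravenously (hUMSC, human umbilical mesenchymal stem cells). The labels place sampling at 72 hours after occlusion and put the numbers 5 to 10 on the hUMSC arrays. They give no sham operation, hemisphere, brain region, sex or time of infusion, and nothing says that the samples came from separate animals, so p-values measure the spread between these samples.

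Before a cell divides, the origin recognition complex marks origins, and Cdc6 and Cdt1 load the ring-shaped MCM helicase onto them. In S phase, Cdc45 and the GINS complex switch the helicase on, polymerases copy both strands behind a sliding clamp, and ribonucleotide reductase and thymidine enzymes supply the building blocks. Many of these genes are known targets of E2F transcription factors, which act when cyclins release them from the retinoblastoma protein. Most neurons of the adult brain do not copy their DNA, whereas microglia, astrocytes, vascular cells and invading blood cells can divide after an ischaemic injury.

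The replication and S phase genes were higher after MCAo, both in the saline and in the hUMSC group. In saline against control, 26 of the 37 tested members rose and 0 fell by limma (adjusted p under 0.05), while 14.3% of all tested genes rose and 13.0% fell. In hUMSC against control, 32 rose and 0 fell, against 24.7% and 37.3% of all tested genes. Saline 1 and 5 were the lowest saline arrays on the mean of the members. Without them, a choice made after seeing the data, 33 rose in saline and 32 in hUMSC. The largest increases were those of Rrm2, which encodes the small subunit of ribonucleotide reductase (19.9-fold in hUMSC against control), and of the helicase subunit gene Mcm3 (11.4-fold). In hUMSC against saline, 4 members rose (Mcm2, Mcm7, Pola1 and Chaf1b) and 0 fell, against 4.86% and 7.96% of all tested genes. Without saline 1 and 5, 0 members rose in that comparison. Each of the 4 calls was also lost when any of 10 or 11 single arrays, every control among them, was left out. Orc6, Prim1, Rrm1, Ccne1 and Ccne2 passed the test in none of the 3 comparisons.

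The arrays as a whole bore on these results in several ways. Between 72.3% and 77.6% of probes per array were well above background, and arrays of a group correlated at 0.978 to 0.996 over all tested genes. All 8 neuronal markers tested were well above background on all 16 arrays. The labels' RNA protocol names a kit for blood with globin reduction. The arrays lay on 2 slides: controls 1 to 3, saline 1 to 3 and hUMSC 5 and 6 on slide 1, and the other arrays on slide 2. Saline 1 and saline 5 stood apart from the other saline arrays. Averaged over the 37 tested members, their log2 signal exceeded the mean of the controls by 0.52 and 0.20, against 1.40 to 1.42 in saline 2, 3 and 4. The hUMSC arrays lay at 1.14 to 1.96 on that measure, and the controls at -0.08 to 0.09. The scaling of the arrays set how all genes divided. Scaled on the array median, 2377 genes rose and 4888 fell in saline against control, where the 75th percentile gave 2924 and 2657, or 3194 and 1897 when taken over the probes well above background on all arrays. In hUMSC against saline the median gave 1193 and 1157, in place of 994 and 1630. The 26 and 32 counts of members above were the same under both scalings. Since the 3 comparisons share groups, their values for a gene are not independent of each other.

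**Figure D1:**
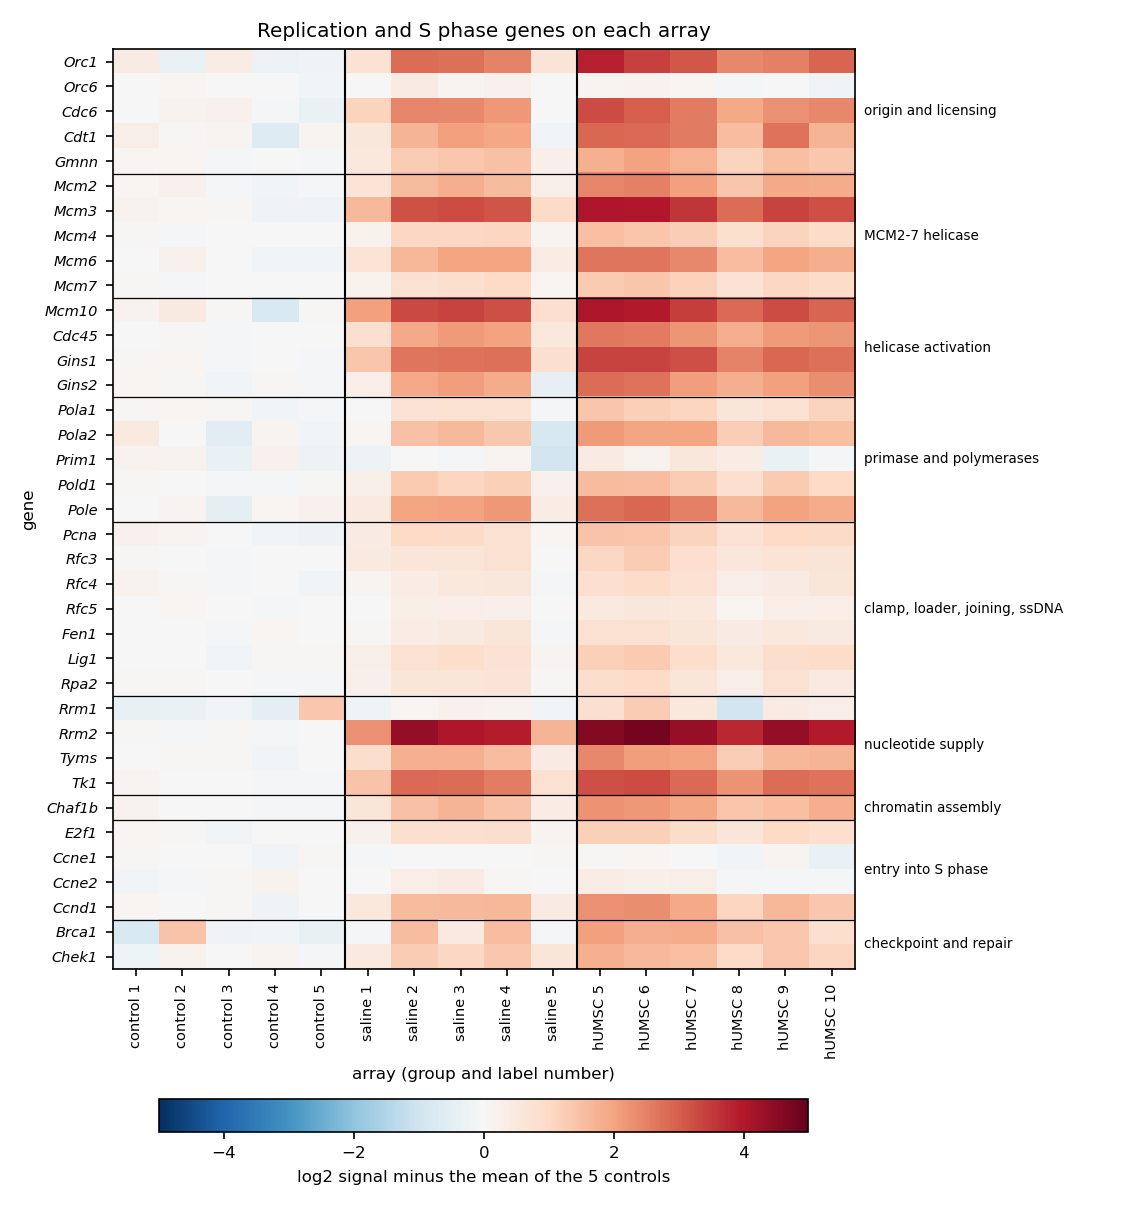
Change of each tested replication and S phase gene (rows, grouped by role) on each of the 16 arrays (columns), as log2 signal minus the mean of the 5 controls. Saline 1 and saline 5 are paler than saline 2, 3 and 4 in most rows, and the rows of Orc6, Prim1, Ccne1 and Ccne2 are pale across all groups.

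Because E2F factors are the classical regulators of this set, the 250 bases before the annotated start of each gene were searched for E2F words, in RefSeq promoters of the rat build GRCr8. The words were TTTCCCGC, TTTCGCGC, TTTGCCGC and TTTGGCGC on both strands, with overlapping matches counted. Promoters of 33 of the 40 members were in the table, and 9 of the 33 held a match (27.3%), compared with 477 of 27457 promoters in all (1.74%). The 7 members without a promoter there were Orc1, Cdc6, Mcm4, Rrm2, E2f1, Ccne2 and Ccnd1. The 9 members were Mcm2, Mcm5, Mcm6, Mcm7, Gins1, Pola1, Tyms, Uhrf1 and Chek1. Members without a match included Mcm3, Mcm10 and Tk1, whose log2 increases in hUMSC against control were 3.51, 3.40 and 2.84. Among members that rose in hUMSC against control, 7 of 26 held a match, and among those tested that did not pass, 0 of 4 did. Of the genes of mitosis, used below for comparison, 1 of 28 held a match. A CCAAT box, whose letters are in none of these words, was found in 57.6% of the member promoters, 67.9% of the mitotic ones and 34.2% of all. The word TTTGAA, the core of the element known as CHR, was in 3.03%, 42.9% and 16.1%. A match is a description of these letters and does not show that a factor was bound.

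The promoters below show where the E2F words lie. In each of 5 roles, the member with the largest increase among those with a match is printed (Mcm6, Gins1, Pola1, Tyms and Chek1). Orc6, which held no match and changed little, is also printed. Mcm2 was chosen after its values were seen, because it was higher in all 3 comparisons. Mcm7 and Chaf1b were higher in all 3 as well and are not printed. Mcm7 held 2 words that do not overlap, beginning 233 and 52 bases before its start, and Chaf1b held none. Each runs 5′ to 3′ in the direction of transcription and ends at the base before the start, with E2F words in capitals. In Mcm2, Mcm6 and Gins1, a word on each strand overlaps, and in Mcm2 and Gins1 the marked stretch equals its own reverse complement. It begins 14 bases before the start of Mcm2, 139 before that of Mcm6 and 25 before that of Gins1. The word of Tyms begins 37 bases before its start, that of Chek1 28 and that of Pola1 172 bases before.
Mcm2, chr4:122918095-122918344, minus strand: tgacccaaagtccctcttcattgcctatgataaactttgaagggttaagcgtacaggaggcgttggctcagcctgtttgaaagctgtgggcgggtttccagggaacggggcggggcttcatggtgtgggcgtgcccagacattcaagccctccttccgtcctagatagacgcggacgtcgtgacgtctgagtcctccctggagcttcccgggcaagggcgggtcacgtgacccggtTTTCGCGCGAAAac
Mcm6, chr13:42404353-42404602, minus strand: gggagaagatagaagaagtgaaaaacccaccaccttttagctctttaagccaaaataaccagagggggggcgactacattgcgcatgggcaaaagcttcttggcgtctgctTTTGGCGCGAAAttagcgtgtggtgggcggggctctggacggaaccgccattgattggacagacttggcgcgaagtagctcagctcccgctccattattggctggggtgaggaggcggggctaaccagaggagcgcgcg
Gins1, chr3:160184670-160184919, plus strand: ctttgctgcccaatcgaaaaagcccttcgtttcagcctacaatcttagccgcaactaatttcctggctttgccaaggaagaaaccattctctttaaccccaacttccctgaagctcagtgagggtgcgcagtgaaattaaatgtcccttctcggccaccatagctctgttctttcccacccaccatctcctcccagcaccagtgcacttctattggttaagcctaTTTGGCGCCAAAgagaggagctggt
Pola1, chrX:62342356-62342605, minus strand: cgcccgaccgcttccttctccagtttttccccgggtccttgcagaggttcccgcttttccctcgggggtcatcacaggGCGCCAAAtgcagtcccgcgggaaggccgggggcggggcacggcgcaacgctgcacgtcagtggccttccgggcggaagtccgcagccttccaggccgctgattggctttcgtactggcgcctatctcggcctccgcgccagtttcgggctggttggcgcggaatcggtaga
Tyms, chr9:120776084-120776333, minus strand: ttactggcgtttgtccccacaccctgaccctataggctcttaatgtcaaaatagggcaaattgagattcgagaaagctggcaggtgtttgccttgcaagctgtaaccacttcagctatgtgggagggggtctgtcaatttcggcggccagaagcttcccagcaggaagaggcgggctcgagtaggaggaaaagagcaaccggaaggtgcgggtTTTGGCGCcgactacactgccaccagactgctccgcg
Chek1, chr8:44629844-44630093, minus strand: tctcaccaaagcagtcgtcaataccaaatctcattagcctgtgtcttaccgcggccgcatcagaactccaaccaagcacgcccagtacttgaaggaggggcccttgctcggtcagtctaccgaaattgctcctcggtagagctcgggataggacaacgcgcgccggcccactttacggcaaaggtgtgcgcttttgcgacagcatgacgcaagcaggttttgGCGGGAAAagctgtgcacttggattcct
Orc6, chr19:37938857-37939106, minus strand: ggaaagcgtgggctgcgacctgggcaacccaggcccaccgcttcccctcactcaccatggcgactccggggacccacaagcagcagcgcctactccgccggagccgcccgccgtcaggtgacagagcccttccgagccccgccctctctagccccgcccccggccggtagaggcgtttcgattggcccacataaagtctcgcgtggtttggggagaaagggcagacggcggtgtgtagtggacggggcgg

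Among the 5 genes of origin recognition and licensing, 4 rose in saline and in hUMSC against control, and Orc6 did not pass in either comparison. Levels are log2 signals relative to the 75th percentile of the same array and are not comparable between genes, since each comes from its own probe. Orc1, the largest subunit of the origin recognition complex, lay at -6.33, -7.09, -6.37, -7.06 and -6.94 in controls 1 to 5. In saline 1 to 5 it lay at -6.04, -3.96, -4.00, -4.27 and -6.10, and in the hUMSC arrays between -4.37 and -2.85, with a median of -3.76. All saline and hUMSC arrays lay above all controls, with saline 1 and 5 only just above them. The level of Orc1 rose by 1.88 ± 0.43 (log2 difference ± SE of the model, adjusted p = 0.0073, limma) in saline and by 3.04 ± 0.41 in hUMSC (8.23-fold, adjusted p = 3.51e-05).

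Cdc6, the ATPase that brings the helicase to the origin, rose 3.09-fold in saline (adjusted p = 0.00964) and 5.94-fold in hUMSC (adjusted p = 6.09e-05, limma). Cdt1, its partner in loading, rose 2.34-fold (adjusted p = 0.0356) and 5.22-fold (adjusted p = 0.000117). Gmnn encodes geminin, which holds Cdt1 back so that an origin is used a single time per cycle, and it rose 1.95-fold (adjusted p = 0.00668) and 3.00-fold (adjusted p = 2.82e-05). Cdt1 and its inhibitor thus rose in the same groups. Orc6, whose product belongs to the same complex as that of Orc1, lay at -3.82, -3.73, -3.81, -3.82 and -3.95 in the controls and at -3.80, -3.42, -3.70, -3.61 and -3.84 in saline. Its hUMSC values ran from -3.98 to -3.66 around a median of -3.79. The 3 groups overlapped, and the change of Orc6 in hUMSC against control was 0.03 ± 0.08 (adjusted p = 0.746, limma).

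The signals of Orc1, Cdc6 and Cdt1 were low, and Orc1 was well above background on 2 of 5 controls and Cdt1 on 4. A different background correction (normexp) added an offset to every signal, which by construction shrinks the log2 changes of dim probes most. With it, the log2 change in hUMSC against control was 1.30 for Orc1, 1.36 for Cdc6 and 1.01 for Cdt1. These were smaller than the values above by over 1.5 times and still past the test. In saline against control the same correction gave 0.76, 0.85 and 0.50. The call of Cdt1 in saline against control was lost without any of 7 arrays (controls 2 to 5 and saline 2, 3 and 4), with adjusted p of 0.0571 to 0.0966.

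All 5 measured subunits of the MCM helicase, the ring that unwinds DNA, rose in both MCAo groups against control. Mcm3 lay at -1.87, -1.95, -2.01, -2.24 and -2.23 in controls 1 to 5. In saline 1 to 5 it lay at -0.45, 1.13, 1.19, 1.08 and -1.09. In the hUMSC arrays it ran from 0.75 to 1.98 with a median of 1.43. No array of either MCAo group overlapped the controls, and saline 1 and 5 lay between the controls and every hUMSC array. The increase of Mcm3 was 2.43 ± 0.39 in saline (5.40-fold, adjusted p = 0.00114) and 3.51 ± 0.38 in hUMSC (11.4-fold, adjusted p = 6.93e-06, limma).

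Mcm2 lay at -2.53, -2.41, -2.72, -2.74 and -2.65 in controls 1 to 5. In saline 1 to 5 it lay at -1.92, -1.03, -0.79, -1.03 and -2.31, and in hUMSC between -1.20 and -0.10, with a median of -0.63. Every MCAo array was above every control, but hUMSC 8 was below saline 2, 3 and 4. Mcm2 rose 2.28-fold in saline (adjusted p = 0.00643), 4.06-fold in hUMSC (adjusted p = 2.11e-05) and 1.78-fold in hUMSC against saline (0.83 ± 0.26, adjusted p = 0.0461, limma). Its promoter holds the overlapping E2F words nearest to a start among those printed.

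Mcm7, another subunit of the ring, changed least among the 5 when compared with control. It lay at 0.37, 0.27, 0.30, 0.36 and 0.32 in controls, and at 0.49, 1.09, 1.18, 1.31 and 0.43 in saline 1 to 5. The hUMSC values ran from 1.06 to 1.70 around a median of 1.43. Saline 1 and 5 lay just above the controls, and hUMSC overlapped saline 2, 3 and 4. The increase of Mcm7 was 1.49-fold in saline (adjusted p = 0.0209), 2.13-fold in hUMSC (adjusted p = 5.31e-05) and 1.43-fold in hUMSC against saline (adjusted p = 0.0451, limma).

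Mcm4 rose 1.62-fold in saline (adjusted p = 0.0167) and 2.24-fold in hUMSC, and Mcm6 rose 2.51-fold (adjusted p = 0.00747) and 4.52-fold (adjusted p = 3.30e-05, limma). Further probes of Mcm2, Mcm3 and Mcm4 gave log2 changes in hUMSC against control of 2.21, 3.34 and 1.13, where the probes used gave 2.02, 3.51 and 1.16. In saline against control the call of Mcm7 was lost without saline 2, 3 or 4 (adjusted p 0.0578 to 0.0601) and that of Mcm4 without saline 2 (0.0504).

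The 4 genes of helicase activation also rose in both MCAo groups. Cdc45, the cofactor that joins the MCM ring to form the active helicase, lay at -2.12, -2.11, -2.20, -2.19 and -2.13 in controls. It lay at -1.33, -0.25, -0.02, -0.14 and -1.62 in saline 1 to 5, and between -0.34 and 0.49 in hUMSC, with a median of 0.06. The controls spanned a narrow band below all MCAo arrays, and the hUMSC arrays overlapped saline 2, 3 and 4. The increase of Cdc45 was 2.78-fold in saline (adjusted p = 0.00227) and 4.82-fold in hUMSC (adjusted p = 1.05e-05, limma).

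Mcm10, a scaffold protein that binds the helicase and the primase, was well above background on 1 of 5 controls and on all arrays of both MCAo groups. It lay at -7.13, -6.87, -7.27, -8.07 and -7.27 in controls and at -5.29, -4.04, -3.93, -4.11 and -6.48 in saline 1 to 5. The hUMSC arrays ran from -4.51 to -3.28 with a median of -3.98. The MCAo arrays were all above the controls, and those of hUMSC overlapped those of saline. Mcm10 rose by 2.55 ± 0.43 in saline (adjusted p = 0.00152) and by 3.40 ± 0.41 in hUMSC (adjusted p = 1.65e-05, limma), but by 0.92 and 1.33 with normexp correction. A further probe of Mcm10 was well above background on 0 of 16 arrays.

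Gins1 and Gins2 encode subunits of the GINS complex. Gins1 rose 4.17-fold in saline (adjusted p = 0.00105) and 8.06-fold in hUMSC (adjusted p = 5.99e-06, limma). Gins2 rose 2.21-fold (adjusted p = 0.0418) and 4.92-fold (adjusted p = 0.000128), with 3 of 5 controls well above background. With normexp correction the log2 changes of Gins2 were 0.50 (adjusted p = 0.0591) and 1.08. The call of Gins2 in saline against control was lost without any of 10 arrays (controls 1 to 5, saline 2, 3 and 4, hUMSC 7 and 9), with adjusted p of 0.0504 to 0.113.

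The primase and polymerase genes were less alike. Pold1 and Pole, the catalytic subunits of the polymerases that copy the lagging and the leading strand, rose in both MCAo groups. Pola1 and Pola2, subunits of the polymerase that extends the primer, passed the test against control in hUMSC and not in saline, and Prim1, the catalytic subunit of primase, did not pass. Pole lay at -5.88, -5.76, -6.39, -5.79 and -5.69 in controls, and at -5.40, -3.91, -3.90, -3.74 and -5.54 in saline 1 to 5. Its hUMSC values lay between -4.29 and -3.02 around a median of -3.65. All MCAo arrays were above all controls, with saline 1 and 5 closest to them. The increase of Pole was 2.65-fold in saline (adjusted p = 0.0123) and 4.81-fold in hUMSC (adjusted p = 7.71e-05, limma), with normexp log2 changes of 0.69 and 1.18 in place of 1.41 and 2.27. Pold1 rose 1.76-fold (adjusted p = 0.0111) and 2.40-fold (adjusted p = 9.12e-05).

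Pola1, whose E2F word lies farther from the start than those of the other promoters printed, lay at -5.38, -5.33, -5.38, -5.55 and -5.46 in controls. In saline 1 to 5 it lay at -5.44, -4.69, -4.66, -4.68 and -5.52, and in hUMSC between -4.81 and -4.04, with a median of -4.34. Saline 1 and 5 were within the range of the controls, and all hUMSC arrays were above it. The increase of Pola1 was 1.34-fold in saline (adjusted p = 0.0916), 2.03-fold in hUMSC against control (adjusted p = 0.000179) and 1.51-fold in hUMSC against saline (adjusted p = 0.0411, limma). With normexp correction the Pola1 change in hUMSC was 0.50 against control and 0.27 against saline (adjusted p = 0.0542).

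Pola2 differed from control by 1.69-fold in saline (adjusted p = 0.162) and rose 3.34-fold in hUMSC (adjusted p = 0.00104, limma), or by 0.52 on the log2 scale with normexp correction, against 1.74. Prim1 lay at 0.50, 0.48, -0.03, 0.54 and 0.06 in controls, at 0.04, 0.34, 0.23, 0.46 and -0.61 in saline 1 to 5, and between -0.03 and 0.88 in hUMSC, with a median of 0.59. The 3 groups overlapped. The difference of Prim1 between hUMSC and control was 0.19 ± 0.20 (adjusted p = 0.412).

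The 7 genes of the clamp, its loader, strand joining and single-strand binding all rose in hUMSC against control, and 4 of them rose in saline. Pcna, the sliding clamp that holds polymerases on DNA, lay at 0.53, 0.48, 0.36, 0.19 and 0.09 in controls, at 0.76, 1.32, 1.29, 1.1 and 0.41 in saline 1 to 5, and between 1.05 and 1.75 in hUMSC, with a median of 1.38. Saline 5 fell among the controls, and all hUMSC arrays were above them. The increase of Pcna was 1.57-fold in saline (adjusted p = 0.016) and 2.14-fold in hUMSC (adjusted p = 8.06e-05, limma).

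The clamp loader genes Rfc3, Rfc4 and Rfc5 rose 1.78-fold, 1.56-fold and 1.31-fold in hUMSC against control. Rfc5 showed the smallest increase among the members that passed. It lay at -0.84, -0.76, -0.88, -0.91 and -0.87 in controls, at -0.89, -0.56, -0.53, -0.59 and -0.84 in saline 1 to 5, and between -0.75 and -0.28 in hUMSC, with a median of -0.44. The lowest hUMSC array lay just above the highest control, and saline 1 and 5 were among the controls. The increase of Rfc5 in hUMSC was 0.39 ± 0.09 (adjusted p = 0.00162, limma), and the difference in saline was 0.17 ± 0.09 (adjusted p = 0.181). In saline, Rfc3 rose 1.39-fold (adjusted p = 0.0214) and Rfc4 differed by 1.23-fold (adjusted p = 0.117).

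Lig1, the ligase that seals newly made fragments, rose 1.48-fold in saline (adjusted p = 0.0153) and 1.94-fold in hUMSC (adjusted p = 7.52e-05, limma). Rpa2, a subunit of the protein that coats single-stranded DNA, rose 1.36-fold (adjusted p = 0.0235) and 1.58-fold. Fen1, the nuclease that trims those fragments, differed by 1.23-fold in saline (adjusted p = 0.0655) and rose 1.50-fold in hUMSC (adjusted p = 0.000332). Leaving out saline 2, 3 or 4 ended the saline calls of Rfc3 (adjusted p 0.0558 to 0.0614) and Rpa2, and leaving out control 4 or 5 that of Rpa2 (0.0501 to 0.0655 over these 5 arrays).

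Of the 4 nucleotide supply genes, Rrm2, Tyms and Tk1 rose in both MCAo groups and Rrm1 did not pass. Rrm2 lay at -1.0, -1.13, -1.01, -1.11 and -1.04 in controls 1 to 5. In saline 1 to 5 it lay at 1.21, 3.35, 2.99, 2.89 and 0.64, and in hUMSC between 2.73 and 3.73, with a median of 3.31. Every MCAo array was above every control by more than the whole range of the controls, and hUMSC overlapped saline 2, 3 and 4. The increase of Rrm2 was 3.27 ± 0.42 in saline (9.67-fold, adjusted p = 0.000309) and 4.32 ± 0.40 in hUMSC (19.9-fold, adjusted p = 3.12e-06, limma). A further Rrm2 probe was well above background on 0 of 5 controls, and gave at least 13.2-fold in saline and at least 30.3-fold in hUMSC.

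Rrm1 encodes the large subunit of the same enzyme. It lay at -4.46, -4.40, -4.20, -4.56 and -2.74 in controls, at -4.28, -3.96, -3.85, -3.88 and -4.20 in saline 1 to 5, and between -5.05 and -2.81 in hUMSC, with a median of -3.61. Control 5 lay above every saline array, and hUMSC 8 below every other array. The difference of Rrm1 between hUMSC and control was 0.39 ± 0.36 (adjusted p = 0.354, limma), and 0.72 without control 5 (adjusted p = 0.0526). Within slide 1, which lacks control 5, it was 1.31 (adjusted p = 0.00239), and within slide 2 it was -0.35 (adjusted p = 0.652). Against saline, the hUMSC change was 0.98 within slide 1 (adjusted p = 0.0463) and 0.04 within slide 2. With all arrays, the subunits of ribonucleotide reductase gave unlike values, although the difference between them was not tested.

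Tyms, which makes thymidylate, rose 2.43-fold in saline (adjusted p = 0.00338) and 3.59-fold in hUMSC (adjusted p = 2.74e-05, limma). Tk1, the thymidine kinase of dividing cells, rose 4.22-fold (adjusted p = 0.0011) and 7.17-fold (adjusted p = 9.55e-06). Chaf1b, a subunit of the complex that places histones on new DNA, was the only measured gene of its role. It lay at -1.39, -1.58, -1.53, -1.66 and -1.65 in controls, at -0.94, -0.09, 0.14, -0.14 and -1.20 in saline 1 to 5, and between -0.18 and 0.69 in hUMSC, with a median of 0.30. No MCAo array overlapped the controls, hUMSC 9 lay within the range of saline 2, 3 and 4, and hUMSC 8 lay below it. Chaf1b rose 2.17-fold in saline (adjusted p = 0.00492), 3.58-fold in hUMSC (adjusted p = 1.77e-05) and 1.65-fold in hUMSC against saline (adjusted p = 0.0485).

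Of the 4 genes of entry into S phase, E2f1 and Ccnd1 rose in both MCAo groups, and the genes of cyclin E did not pass. Ccnd1, which encodes cyclin D1, lay at -1.08, -1.19, -1.11, -1.35 and -1.17 in controls, at -0.65, 0.42, 0.43, 0.47 and -0.75 in saline 1 to 5, and between -0.12 and 1.15 in hUMSC, with a median of 0.59. All MCAo arrays were above the controls. The increase of Ccnd1 was 2.24-fold in saline (adjusted p = 0.00929) and 3.38-fold in hUMSC (adjusted p = 7.99e-05, limma). E2f1 rose 1.48-fold (adjusted p = 0.0149) and 1.94-fold (adjusted p = 7.17e-05), and a further probe gave log2 changes of 0.90 and 1.52 where the probe used gave 0.56 and 0.95.

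Ccne1, which encodes cyclin E1, lay at 0.31, 0.27, 0.21, 0.11 and 0.28 in controls, at 0.19, 0.27, 0.21, 0.27 and 0.30 in saline, and between -0.11 and 0.38 in hUMSC, with a median of 0.25. The groups overlapped, and the change of Ccne1 in hUMSC against control was -0.03 ± 0.08 (95% interval -0.20 to 0.13, adjusted p = 0.73, limma). That of Ccne2 was 0.12 ± 0.11 (95% interval -0.12 to 0.35, adjusted p = 0.357).

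Brca1 and Chek1 stand for repair and the replication checkpoint. Chek1, a kinase that slows S phase when forks stall, lay at -5.08, -4.69, -4.85, -4.72 and -4.96 in controls, at -4.36, -3.58, -3.81, -3.52 and -4.26 in saline 1 to 5, and between -3.89 and -3.09 in hUMSC, with a median of -3.43. No MCAo array overlapped the controls. Chek1 rose 1.94-fold in saline (adjusted p = 0.00283) and 2.61-fold in hUMSC (adjusted p = 2.06e-05, limma), or by 0.55 and 0.79 with normexp correction against 0.96 and 1.39.

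Brca1, which acts in repair by recombination, was near the background, being well above it on 1 of 5 controls. It lay at -8.84, -6.62, -8.24, -8.18 and -8.42 in controls, at -8.17, -6.52, -7.56, -6.53 and -8.18 in saline 1 to 5, and between -7.24 and -6.02 in hUMSC, with a median of -6.41. Control 2 lay among the hUMSC arrays. The increase of Brca1 in hUMSC was 1.56 ± 0.40 (adjusted p = 0.00354, limma) and fell to 0.23 with normexp correction.

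**Figure D2:**
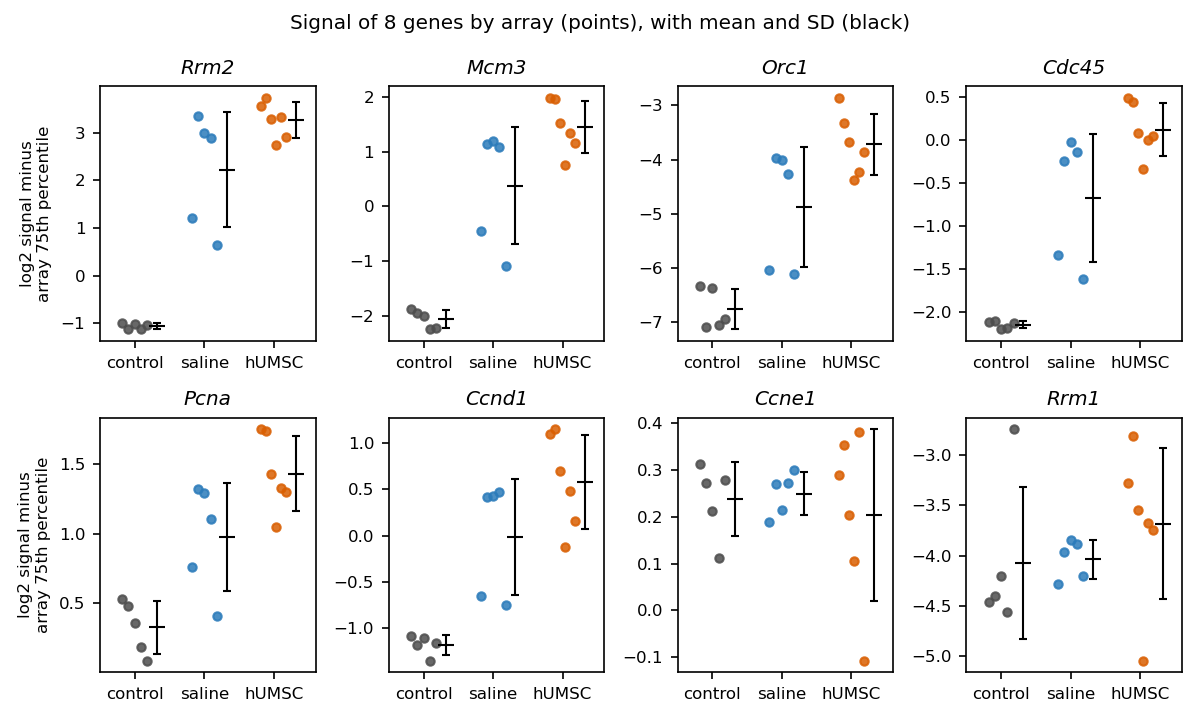
Log2 signal relative to the array's 75th percentile for 8 of the genes on each array (points), with the mean and SD of each group in black. In Rrm2, Mcm3, Orc1 and Cdc45, 2 saline arrays lie between the controls and the other 3 saline arrays, and in Ccne1 the groups overlap.

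Across the set, the median log2 change of the 37 tested members was 0.82 in saline against control, 0.59 in hUMSC against saline and 1.56 in hUMSC against control, where the medians over all tested genes were -0.04, -0.07 and -0.13. The second of these fell without saline 1 and 5, the lowest saline arrays on the mean of the members. The median was then 1.23 in saline against control and 0.18 in hUMSC against saline. The latter was 0.03 without hUMSC 5 and 6 as well, the highest hUMSC arrays on that mean. Both sets were chosen after seeing the data, so the direction of these moves was fixed by the choice. Group means rose in the order control, saline, hUMSC in 33 of the 37, compared with 28.8% of all tested genes. In saline against control, 16 members passed the test with at least a 2-fold increase (4.46% of all tested genes), in hUMSC against control 25 did (8.44%), and in hUMSC against saline 0 did (1.01%). All saline arrays lay above all controls for 21 members (9.85% of all tested genes), and all hUMSC arrays lay above all controls for 31 (19.2%). Of the 30 members well above background on all 16 arrays, 21 rose in saline and 25 in hUMSC against control. The shares of all tested genes that rose, taken without that filter, were 14.3% and 24.7%.

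**Figure D3:**
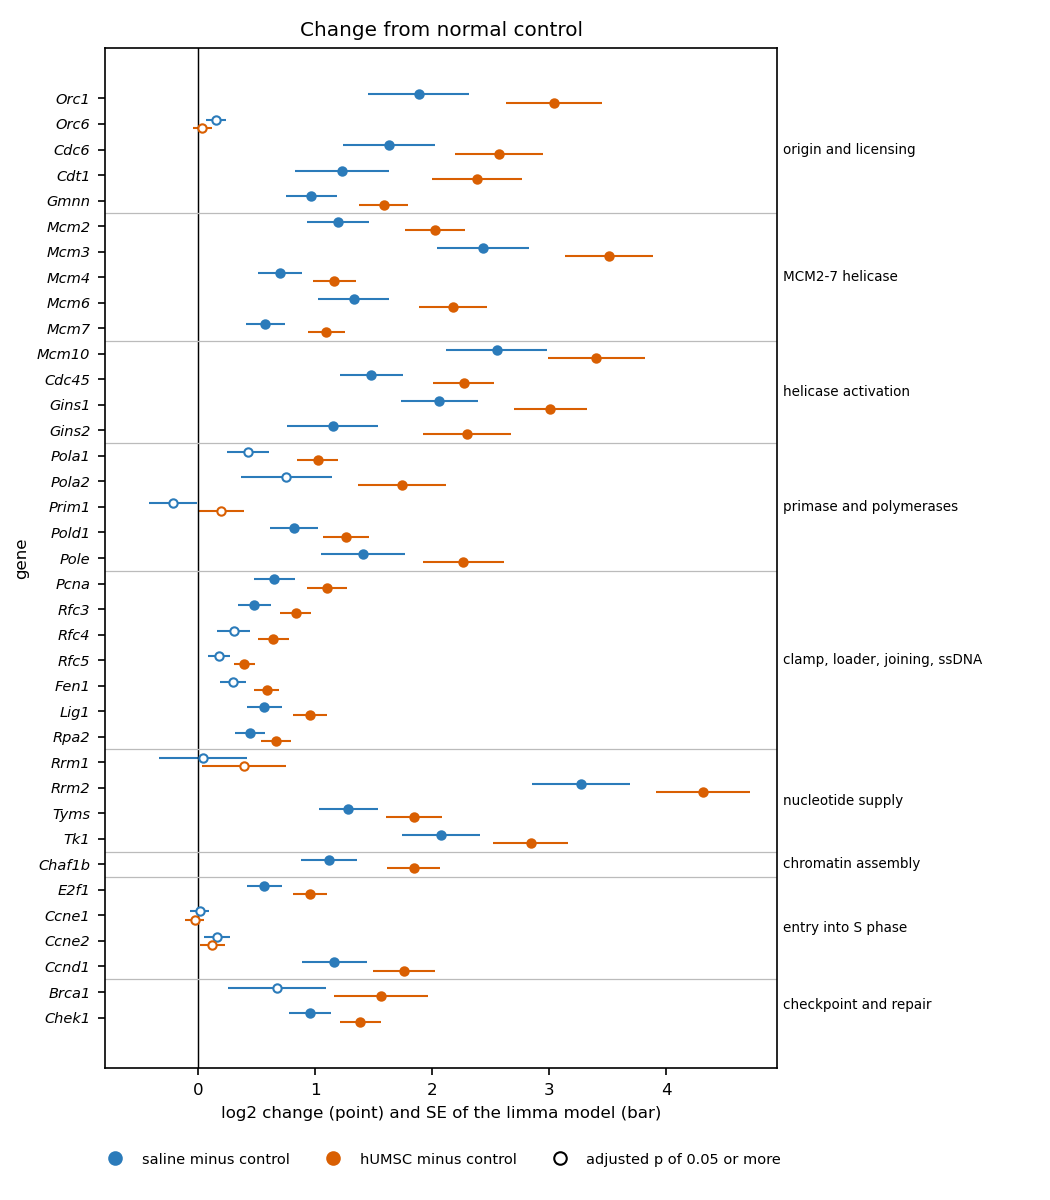
Log2 change against control of each tested gene in saline (blue) and hUMSC (orange), with the SE of the limma model as bars; open points have an adjusted p of 0.05 or more. Rrm2 shows the largest change (3.27 and 4.32), and Orc6, Prim1, Rrm1, Ccne1 and Ccne2 are open in both groups.

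With slide as a block, 26 members rose in saline and 32 in hUMSC against control. Fits within 1 slide used fewer arrays. Within slide 1, 20 and 33 rose. Within slide 2, which held controls 4 and 5, saline 4 and 5 and hUMSC 7 to 10, 0 rose in saline by limma (15 at an unadjusted p under 0.05), with a median change of 0.74, and 28 rose in hUMSC. Without saline 1 and 5 (an alternative chosen after seeing the data) the saline count was 33, as given above. Leaving out 1 array at a time gave 20 to 30 members higher in saline and 32 in hUMSC.

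The difference between hUMSC and saline was less settled than either difference from control. It was positive in 34 of 37 members, and 30 had an unadjusted p under 0.05, compared with 37.1% of all tested genes in either direction. After adjustment 4 passed and 21 more had values from 0.05 to under 0.1. The model took 1 spread from all 3 groups. The median SD of the members was 0.10 in controls, 0.55 in saline and 0.34 in hUMSC (0.11, 0.21 and 0.19 over all tested genes). The p-values of hUMSC against saline thus also draw on the tighter controls. With only these 2 groups compared, 0 members rose by limma (23 at an unadjusted p under 0.05). For no member did all hUMSC arrays lie above all saline arrays (1.24% of all tested genes). With slide as a block 27 members rose, while within slide 1 there were 2 and within slide 2 there were 0 (7 at an unadjusted p under 0.05). The numbers over all tested genes moved with these settings too, and are given below with the dependence on processing. The 4 calls were lost without saline 1, saline 5, any of the 5 controls, or hUMSC 5, 6 or 7 (0 members each by limma, and 12 to 30 at an unadjusted p under 0.05), whereas 15 to 18 members rose without saline 2, 3 or 4 or hUMSC 8. Without hUMSC 9, 2 rose, and without hUMSC 10, 4 did. Without saline 1 and 5 the median change of the members was 0.18 and 0 rose by limma (0 also at an unadjusted p under 0.05). Leaving out the lowest saline arrays lowers this difference by construction.

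The other genes of these pathways, taken from lists by function, moved in part with the members. Their counts stand beside 14.3% of all tested genes that rose and 13.0% that fell in saline against control. In hUMSC against control these shares were 24.7% and 37.3%. Of 26 further genes of the replication machinery, 10 rose and 0 fell in saline, and 18 rose and 3 fell in hUMSC against control. Pole2, a polymerase subunit, was not well above background on any of the 5 controls, and it rose at least 3.56-fold in saline and at least 5.81-fold in hUMSC. Such a bound sets the MCAo mean against, on each control array, the dimmest signal well above background or the gene's own signal, whichever was higher. The bounds were not tested, and genes with 0 controls well above background were tested only because of their MCAo arrays. Dbf4, the activator of the kinase Cdc7, was well above background on 1 of 5 controls and differed from them by 1.99 in saline and 2.57 ± 0.26 in hUMSC (adjusted p = 5.09e-06, limma). Wdhd1, which ties polymerase to the helicase, rose by 1.85 ± 0.25 in hUMSC (adjusted p = 3.45e-05), and Timeless rose by 1.20 in saline. The origin subunits Orc5 and Orc2 fell by 0.35 and 0.24, and the kinase Cdc7 fell by 0.35 in hUMSC against control and by 0.50 against saline (adjusted p = 0.0336). The subunit Orc1 and its partners Orc2 and Orc5 thus had changes of opposite sign in the same arrays. The median change of all tested genes in hUMSC against control was -0.13, and the difference between these subunits was not tested.

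Of 15 other genes of nucleotide supply, 4 rose in saline and 7 rose and 2 fell in hUMSC against control. Dctd rose by 1.23 ± 0.16 and Impdh2 by 0.62 ± 0.10. The nucleoside kinases Dck and Tk2, which serve salvage outside S phase as well, fell by 0.47 and 0.27. Of 11 other S phase chromatin genes, 3 rose in saline and 7 rose and 1 fell in hUMSC. Asf1b, a histone chaperone of dividing cells, was well above background on 0 of 5 controls and rose at least 29.1-fold in hUMSC, while its paralogue Asf1a fell by 0.28. The methyltransferase gene Ezh2 rose by 1.53 and the helicase gene Hells by 1.37.

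Of 17 further genes of G1 and S phase control, 5 rose and 1 fell in saline, and 8 rose and 3 fell in hUMSC against control. Rbl1, a relative of the retinoblastoma gene, was well above background on 0 of 5 controls and rose at least 3.99-fold in hUMSC. Myc rose by 1.87 ± 0.22 and Cdk6, a kinase partner of cyclin D, by 1.56 ± 0.28. Mycn fell by 0.86, Ccnd2 by 0.46 and Tfdp2 by 0.30. Cyclin D genes therefore differed, with Ccnd1 higher and Ccnd2 lower. Of 7 inhibitors of cyclin-dependent kinases, Cdkn2a, Cdkn2b and Cdkn2c rose in saline (1.22, 1.24 and 1.47) and in hUMSC (1.38, 1.58 and 2.29), and 4 did not pass. Of 14 other genes of replication stress and recombination, 8 rose in saline, and 9 rose and 2 fell in hUMSC, among them Bard1 (2.35), the partner of Brca1, and Fancd2 (1.80).

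Mitosis follows S phase in the cell cycle. Of 34 mitotic genes listed 29 were tested, and all 29 rose in both MCAo groups against control. Over all tested genes, 14.3% rose in saline and 24.7% in hUMSC. The median changes of the mitotic genes were 2.39 in saline and 3.41 in hUMSC. In hUMSC against saline 1 rose (Aurkb, 1.19 ± 0.37, adjusted p = 0.0463, limma), against 4.86% of all tested genes. Cdk1, the kinase that starts mitosis, rose by 3.47 in saline and 4.51 in hUMSC, and Ccnb1, its cyclin, by 2.98 and 4.03. On the same array mean used above, saline 1 and 5 lay at 1.66 and 1.04 and saline 2 to 4 at 3.02 to 3.17.

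Markers of several cell types moved in the same arrays, and their part in the results was not tested. For comparison, 14.3% of all tested genes rose in saline and 24.7% in hUMSC against control, and 4.86% rose in hUMSC against saline. In bulk tissue, fewer cells of a type and less RNA per cell cannot be told apart. Of 12 macrophage and microglia markers, 9 rose in saline and 10 in hUMSC against control, and the mean level of the list was between -0.96 and -0.74 on control arrays, between 0.23 and 2.18 on saline arrays and between 1.96 and 2.55 on those of hUMSC. Cd68, a lysosomal protein of phagocytes, rose by 3.54 and 4.87, and Aif1 by 1.54 and 2.21. Of 9 reactive astrocyte markers, 6 and 7 rose, with list means of -0.68 to 0.01, 0.65 to 2.50 and 1.92 to 2.89. Gfap rose by 1.92 and 2.94, and Vim by 2.59 and 3.48. In both lists saline 1 and 5 were the lowest saline arrays.

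Of 8 endothelial markers, 0 rose and 1 fell in saline, and 6 rose in hUMSC against control and 6 against saline, with list means of -1.81 to -1.56, -2.01 to -1.52 and -1.56 to -0.74. Pecam1 rose by 0.91 in hUMSC and Cdh5 by 0.24. Of 8 fibroblast and pericyte markers, 2 rose in saline and 6 in hUMSC, with means of -0.81 to -0.63, -0.84 to 0.15 and -0.48 to 0.66. Pdgfrb rose by 0.96 in hUMSC, and Rgs5 changed by 0.04 ± 0.14. Of 6 neutrophil markers, 3 rose in saline and 5 in hUMSC, with means of -5.44 to -4.18, -4.30 to -2.46 and -2.45 to -1.07. S100a8 and S100a9 rose by 3.55 and 3.52 in hUMSC. Of 10 T and NK cell markers, 2 rose in saline and 6 in hUMSC, with means of -5.66 to -5.40, -5.24 to -4.49 and -4.61 to -3.89. These means include Cd8a, which had the largest change of the list, at least 33.9-fold in saline and at least 145.6-fold in hUMSC. It was well above background on 0 of 5 controls. The median log2 change of the list was 0.20 in saline and 0.46 in hUMSC against control. Cd3e was well above background on 2 controls, 1 saline array and 4 hUMSC arrays, and Cd3d rose by 0.32 in hUMSC.

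Markers of the cells that divide in the uninjured brain were counted in the same way. Over all tested genes, 14.3% rose and 13.0% fell in saline, and 24.7% rose and 37.3% fell in hUMSC against control. Of 7 markers of neural progenitors and neuroblasts, 1 rose and 1 fell in saline, and 0 rose and 4 fell in hUMSC against control, with list means of -2.08 to -1.82, -2.21 to -1.94 and -2.44 to -2.16 in the order control, saline, hUMSC. Sox2 rose by 0.22 in saline and differed by 0.11 in hUMSC (adjusted p = 0.137, limma). Of 6 markers of oligodendrocyte precursors, 1 rose in saline, and 2 rose and 2 fell in hUMSC, with means of 0.94 to 1.03, 0.92 to 1.26 and 0.87 to 1.21. Pdgfra rose by 0.56 in hUMSC, and Cspg4 by 0.44 in saline and 0.36 in hUMSC. The median change in hUMSC against control was 0.06 over the precursor list and -0.38 over that of progenitors and neuroblasts. Of 8 neuronal markers, 3 fell in saline and 7 in hUMSC, with means of 2.74 to 2.83, 2.26 to 2.75 and 1.91 to 2.29, Syn1 by 0.59 and 0.87 and Snap25 by 0.49 and 0.98. None of 5 red blood cell markers passed in any comparison by limma, and 0 had an unadjusted p under 0.05. Their means were -0.32 to 3.01, -0.62 to 1.82 and -1.12 to 0.35.

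**Figure D4:**
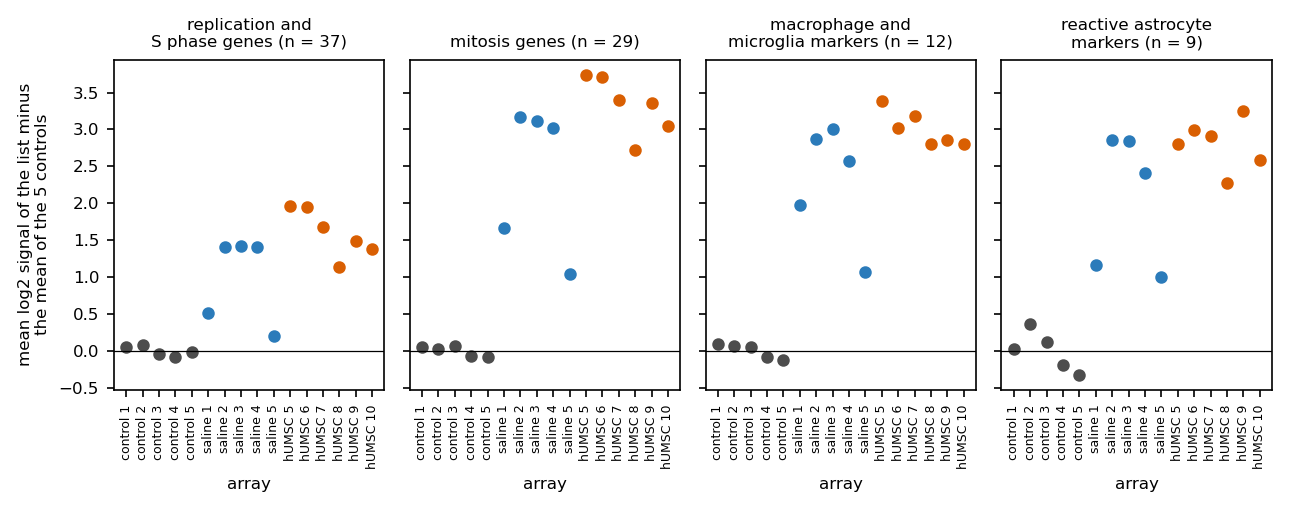
Mean log2 signal of 4 gene lists on each array, as the difference from the mean of the 5 controls (grey), for saline (blue) and hUMSC (orange); n is the number of genes tested. Saline 1 and saline 5 are the lowest MCAo arrays in all 4 panels, at 0.52 and 0.20 for the replication and S phase genes and at 1.66 and 1.04 for the mitosis genes.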

How the data were processed

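Per the file headers, Agilent Feature Extraction 11.0.1.1 subtracted the background on each array and wrote the processed signal, an intensity that is not scaled between arrays; the submitters' processing notes write 100.0.1.1. The table of values that the authors deposited also holds intensities, each equal to the mean processed signal of a probe's spots. No probe was saturated.

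Spots marked as outliers were dropped, log2 signals were averaged per probe and the 75th percentile of the array's non-control probes was subtracted. A probe was tested if well above background on at least 5 of 16 arrays. A gene took its probe with the highest mean. Probes were named by accession through RefSeq tables (18355 of 30367 probes). All 3 groups entered one limma 3.58.1 model (R 4.3.3, 13 residual degrees of freedom), with Benjamini-Hochberg adjustment over 20471 features and 0.05 as threshold. The method was tested on simulated data. Files gave no mean spot signal, so normexp (offset 50) used the median spot signal.

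The members and lists were chosen with earlier results of these data known. Values on every array are printed for the members with the largest and smallest change of hUMSC against control in each role and for those called between hUMSC and saline. Of other lists, up to 3 called genes with the largest change per direction are named, and of marker lists the first 2 measured. Alternatives were other background corrections, scalings, filters and probe rules, slide, array weights, replicate numbers and arrays left out. The number of arrays limits the precision. The values of 2 genes of the other pathway lists are not reported here.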

Additional observations from a re-analysis of the deposited data

Results flagged for a closer look

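For the 37 tested members and their mean, 114 groups of values were examined for a sample far from the others of its group, and 3 were found, all in controls; chance gives about 1 in 20. Cdt1 in control 4 lay at -7.18, below the other controls at -6.47 to -6.25, and without that array its increase was 1.06 in saline (adjusted p = 0.0839, limma) and 2.22 in hUMSC. Pole in control 3 lay at -6.39, below the others at -5.88 to -5.69, and without it the increase was 1.28 in saline and 2.14 in hUMSC. Rrm1 in control 5 lay at -2.74, above the others at -4.56 to -4.20, and without it the change was 0.37 in saline (adjusted p = 0.411) and 0.72 in hUMSC (adjusted p = 0.0526).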

How the results depend on the processing

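Over 32 alternatives, 0 members fell in any of the 3 comparisons, and 25 to 33 rose in hUMSC against control. In saline against control 19 to 33 rose, except within slide 2, where 0 did. Between hUMSC and saline, where 4 rose, the count was 9 with normexp, 2 with quantile normalisation, 0 with no filter on dim probes, 27 with slide as a block, 2 within slide 1, 0 within slide 2, 0 with only the 2 groups compared and 0 with array weights. Leaving out 1 array at a time gave 0 to 18, and 0 rose without saline 1 and 5, also with hUMSC 5 and 6 left out. Those arrays were chosen after seeing the data, as the lowest of saline and the highest of hUMSC. The cause of the moves of this count was not tested. The median change of members in hUMSC against control was 1.56, but 1.08 with normexp and 1.13 over the 30 members well above background on all arrays, a set without the dimmest.

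The change of Cdkn1a in hUMSC against control was -0.03, and 0.24 and past the test (adjusted p = 0.0432, limma) as the mean over its probes. Over the members and the other listed genes taken singly, 20393 values under alternatives kept their direction and side of the threshold, 954 lost it, 667 gained it and 1 reversed.

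Among all tested genes, saline against control gave 2924 higher and 2657 lower. Lower genes numbered 4888 with median scaling, 5133 with array weights, 973 within slide 1, 4992 without saline 1 and 5, 5461 without hUMSC 5 and 6 as well, and 1154 to 3990 leaving out 1 array. Within slide 2 the numbers were 0 and 1. In hUMSC against saline, 994 and 1630 became 428 and 935 with no filter, 2667 and 3723 with slide as a block, 327 and 712 within slide 1, 0 and 0 within slide 2, 8 and 33 with only the 2 groups compared, 20 and 102 with array weights, 5 and 18 without saline 1 and 5, and 2 and 9 without hUMSC 5 and 6 as well. Leaving out 1 array gave 26 to 1796 higher and 157 to 2488 lower. In hUMSC against control, 5057 and 7643 became 3030 and 3154 within slide 2.

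Control and saline share replicate numbers 1 to 5. The correlation of deviations between same-numbered arrays was -0.05, 0.18, 0.01, 0.11 and 0.17. Controls 2 and 5 correlated best with the saline array of their own number, and controls 1, 3 and 4 did not. Whether same-numbered arrays are paired cannot be told from these values. With the replicate block, 19 members rose in saline against control in place of 26, and 1058 genes fell in place of 2657. No paired analysis was possible for the hUMSC comparisons because those arrays share only number 5 with the others. Dim signal limits Brca1, Mcm10, Orc1 and Pola2, which were above background on 1 or 2 controls.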

Other observations

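Between hUMSC and saline, where 4.86% of all tested genes rose and 7.96% fell, the lists of other S phase genes held few calls. Of G1 and S phase control genes, Myc rose by 0.75 ± 0.22 (adjusted p = 0.0412, limma) and Ccnd2, which encodes cyclin D2, fell by 0.39 ± 0.10 (adjusted p = 0.0261). Suv39h1, a histone methyltransferase, rose by 0.33 ± 0.10 and Brca2, which loads the recombinase onto DNA, by 0.47 ± 0.15, while the salvage kinase gene Dck fell by 0.29 ± 0.07. None of the 7 inhibitors of cyclin-dependent kinases passed in that comparison by limma. Of these inhibitors 1 had an unadjusted p under 0.05, as did 37.1% of all tested genes. Of the 7 calls in these lists and that of mitosis, 0 passed without saline 1 and 5 (adjusted p 0.134 to 0.433, limma), and each was lost without saline 1 alone. The call of Dck was also lost without hUMSC 6, that of Ccnd2 without saline 5 or hUMSC 7, and that of Cdc7 without saline 5 or hUMSC 6 or 7. The calls of Myc, Suv39h1, Brca2 and Aurkb were lost without any of 10 to 12 arrays, among them every control.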
